A study of Mus musculus with 12 samples.

Results

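The genes described are those of the cytoskeletal motors, the kinesins and the myosins with the myosin light chains. They are the genes whose symbol on the array platform starts with Kif, Myo, Myh or Myl followed by a digit, leaving out Kif3a, Kif3b, Kif17 and Myl4. The platform carries 75 of them among 20289 named genes, namely 32 kinesins and 43 myosin chains, and 34 were measured, 17 of each kind, among 9381 genes tested. Measured means a detection p-value under 0.01 on 3 or more of the 12 arrays, with the probe of the highest mean standing for each gene. The cells were tracheal epithelial cells of male C57BL/6J mice, grown as primary cultures on porous membranes with their upper face in air (an air-liquid interface, ALI). In such cultures basal cells give rise to secretory cells and, over days, to multiciliated cells. All cultures had been transduced with a lentivirus, which carried either an shRNA against the transcription factor Myb or a scrambled control sequence. There were 4 groups of 3 arrays, stated to be biological replicates: ALI day 9 with Myb shRNA, ALI day 9 with scrambled shRNA, ALI day 3 with Myb shRNA and ALI day 3 with scrambled shRNA. The labels do not say whether the replicates came from separate animals, and whole cultures were measured, so that fewer cells of a type and less RNA per cell cannot be told apart.

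Kinesins walk along microtubules, most of them toward the plus end, and different families carry vesicles, work inside cilia or build and pull apart the mitotic spindle. Myosins pull on actin filaments. Class II myosins assemble into contractile filaments made of heavy chains with essential and regulatory light chains, while the unconventional classes link actin to membranes or tether vesicles. In an airway epithelium, myosin II tightens the belt of actin at the apical junctions, and kinesins of the cilium serve its assembly and its beat.

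Levels are log2 normalised intensities of a probe and cannot be compared between genes. Means stand with their SD (n = 3 arrays a group), differences are in log2 units with their SE, and adjusted p-values are limma's after Benjamini-Hochberg adjustment over all 9381 genes, with a threshold of 0.05. Between 13247 and 15100 probes were detected on each array, and precision is limited by there being only 3 arrays in a group. None of the 4 Myb probes passed the detection filter, so the arrays do not check the knockdown and groups are named by their labels. All 14 ciliated cell markers on the platform and 13 of 14 basal cell markers were measured, against 3 of 9 leukocyte markers and 4 of 14 markers of fibroblasts and smooth muscle. Among the last, Col1a1, Col3a1, Tagln and Des did not pass the detection filter. The 4 arrays numbered 3 stood apart from the others, and counts without them are given in the closing section.

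Of the 41 motor genes that were not measured, 34 had no detection on any array and 7 had one on 1 or 2 arrays. All 8 muscle myosin heavy chains on the platform and all 5 sarcomeric light chains were among the unmeasured. The mitotic kinesins had 6 of 11 genes measured, the ciliary and centriolar kinesins 4 of 5, and the cargo transport kinesins 6 of 13. Of the myosins, class I had 3 of 7 genes measured, the other unconventional classes 8 of 15, the nonmuscle heavy chains 3 of 3 and the nonmuscle and smooth muscle light chains 3 of 4. Of 4 further genes in none of these groups only Kif3c, a kinesin-2 subunit, was measured. At the edge of the filter, Myo9a was detected on 3 arrays and kept, while Myh8, Myl7 and Myo7a were detected on 2 and left out.

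Setting Myb shRNA against scrambled shRNA asks which motor genes differed with the shRNA at each stage of the culture. At day 9 a set of 5 myosins was higher with Myb shRNA (Myo1c, Myo1e, Myo9b, Myo18a and Myh9) and 1 kinesin, Kif27, was lower. These 6 of 34 motor genes (17.6%) stand beside 16.1% of all genes tested at day 9 (6.64% higher and 9.48% lower). The shares are alike in total and not by direction, since most of the 6 were higher. At day 3 the same 6 genes passed in the same directions, joined by Myh10, Kif18b and Kif3c, all higher. The 9 of 34 genes at day 3, 8 higher and 1 lower, stand beside 22.7% of all genes (11.5% higher and 11.2% lower). The median difference over the 34 genes was 0.21 at day 9 and 0.44 at day 3, while over all genes tested it was 0.05 and 0. With differences against a group at background set to their bound, or left out where there is none, the medians of the motor genes were 0.18 and 0.44. Among the 17 myosin chains 5 rose and 0 fell at day 9, and 6 rose and 0 fell at day 3. Among the 17 kinesins 0 rose and 1 fell at day 9, and 2 rose and 1 fell at day 3. Myb shRNA and scrambled arrays did not overlap for 12 motor genes at day 9 and 16 at day 3, against 36.7% and 36.6% of all genes.

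With the replicate number as a block, 10 motor genes passed at day 9 (6 higher and 4 lower) and 20 at day 3 (18 higher and 2 lower), among them all those named above. The same fit called 24.8% of all genes at day 9 and 36.2% at day 3. The day 9 count of 6 was 1 without day 9 Myb shRNA replicate 1 or 2 or day 9 scrambled replicate 2, 2 without day 9 Myb shRNA replicate 3, day 9 scrambled replicate 1 or day 3 Myb shRNA replicate 1, and 3 without day 9 scrambled replicate 3 or day 3 scrambled replicate 2. Of the day 3 count of 9, 5 passed when day 3 scrambled replicate 1 was left out, and the count was 15 when day 3 scrambled replicate 3 was. The 12 fits that each leave out 1 array called 10.1% to 20.2% of all genes at day 9 and 15.4% to 32.2% at day 3. Over these 12 fits, the day 9 call was lost in 9 for Myh9 and for Myo18a, in 7 for Myo1e, in 5 for Myo9b and for Kif27, and in 0 for Myo1c. The day 3 call was lost in 7 for Myo1e, in 4 for Myh10, in 3 for Myh9, in 2 for Myo18a and in 0 for the other 5 genes.

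**Figure D1:**
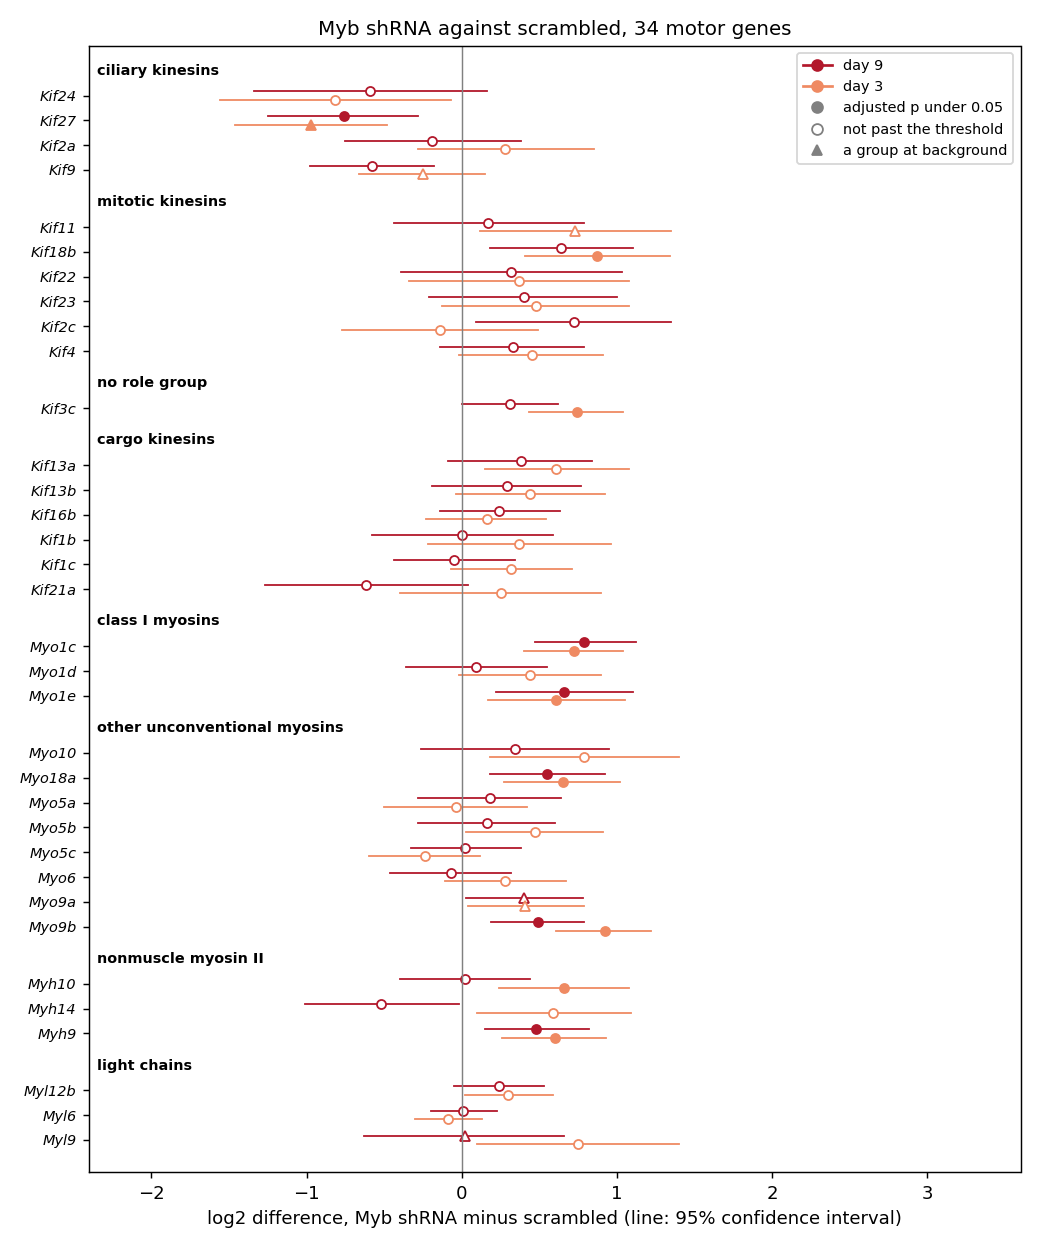
Log2 differences between Myb shRNA and scrambled arrays (horizontal axis) for each of the 34 measured motor genes (vertical axis, by role group) at day 9 (dark) and day 3 (light), with 95% confidence intervals as lines and filled points for adjusted p-values under 0.05. The filled points lie right of 0 for 5 myosins at both days, and Kif27 is the gene with filled points left of 0. Triangles mark a difference for which 1 or both groups were not above background, drawn at the fitted value, which is no measured size.

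Class I myosins are single-headed motors that tie actin to membranes. Myo1c, which acts in exocytosis and membrane tension, read 7.63, 7.73 and 7.86 on the day 9 Myb shRNA arrays and 6.98, 7.21 and 6.66 on the day 9 scrambled arrays. At day 3 it read 7.95, 7.97 and 8.01 with Myb shRNA and 7.24, 7.42 and 7.11 with scrambled shRNA. Each Myb shRNA array was thus above every scrambled array at both days. The difference was 0.79 ± 0.15 (day 9, adjusted p = 0.00261, limma) and 0.72 ± 0.15 (day 3, adjusted p = 0.00392). Myo1c was the 1 motor gene that passed at both days under each of the 21 alternatives run at each day. Myo1e, an endocytic myosin also known from kidney podocytes, read 9.24, 9.23 and 9.89 with Myb shRNA and 8.73, 8.63 and 9.02 with scrambled shRNA at day 9. Its day 3 levels were 9.70, 9.55 and 9.89 with Myb shRNA and 8.75, 9.11 and 9.44 with scrambled shRNA. Here too the groups did not overlap, but array number 3 was the highest of each group. Its differences were 0.66 ± 0.20 (day 9, adjusted p = 0.0412) and 0.61 ± 0.20 (day 3, adjusted p = 0.0454). Myo1d, the third measured gene of the class, had a difference of 0.09 (95% confidence interval -0.36 to 0.55) at day 9 and 0.44 (-0.02 to 0.90) at day 3, neither past the threshold.

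Of the 8 other unconventional myosins, 2 rose at each day and none fell. Myo9b is a class IX myosin. Its levels at day 9 were 8.79, 8.82 and 9.05 with Myb shRNA and 8.26, 8.39 and 8.53 with scrambled shRNA. At day 3 they were 9.44, 9.21 and 9.69 with Myb shRNA and 8.43, 8.51 and 8.65 with scrambled shRNA. The groups were apart at both days, and the day 3 Myb shRNA arrays were the highest of all 12. The Myo9b difference was 0.49 ± 0.14 (day 9, adjusted p = 0.0290) and 0.92 ± 0.14 (day 3, adjusted p = 0.000427), the smallest p-value of any motor gene at that day. The change of that difference between the days, -0.43 ± 0.20, did not pass (adjusted p = 0.355). Myo18a, a Golgi-linked myosin, read 8.03, 8.03 and 8.28 with Myb shRNA and 7.39, 7.71 and 7.60 with scrambled shRNA at day 9. Its day 3 levels were 8.09, 8.09 and 8.54 with Myb shRNA and 7.30, 7.63 and 7.85 with scrambled shRNA. Again no arrays of the 2 groups overlapped at either day, and the differences were 0.55 ± 0.17 (adjusted p = 0.0461) and 0.65 ± 0.17 (adjusted p = 0.0168).

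Members of the class V and VI myosins, which carry and tether vesicles, did not pass in this comparison. Myo6, the myosin that walks toward the minus end of actin, differed by -0.07 (-0.46 to 0.32) at day 9 and 0.28 (-0.11 to 0.67) at day 3. Myo5b, a motor of apical recycling endosomes, differed by 0.16 (-0.28 to 0.60) at day 9 and 0.47 (0.03 to 0.91) at day 3. Over the 8 genes the differences ran from -0.07 to 0.55 at day 9 and from -0.24 to 0.92 at day 3. With the replicate block, Myo5b (adjusted p = 0.00264) and Myo6 (adjusted p = 0.0465) passed at day 3, as did Myo10, a motor of filopodia, at 0.79 ± 0.15 (adjusted p = 0.000766), which is named after its value was seen.

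Nonmuscle myosin II is the contractile motor of epithelial cells, and its 3 heavy chains were measured. Myh9 (chain IIA) read 11.13, 11.16 and 11.05 with Myb shRNA and 10.76, 10.57 and 10.55 with scrambled shRNA at day 9. At day 3 it read 11.32, 11.29 and 11.87 with Myb shRNA and 10.74, 10.79 and 11.16 with scrambled shRNA. The Myb shRNA arrays were all higher, by 0.48 ± 0.15 (day 9, adjusted p = 0.0484) and 0.60 ± 0.15 (day 3, adjusted p = 0.0139). Myh10 (chain IIB) read 6.72, 6.88 and 7.12 with Myb shRNA and 5.92, 6.27 and 6.55 with scrambled shRNA at day 3, with no overlap and a difference of 0.66 ± 0.19 (adjusted p = 0.0274). At day 9 Myh10 averaged 6.65 ± 0.23 with Myb shRNA and 6.63 ± 0.24 with scrambled shRNA, and the arrays overlapped.

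Myh14 (chain IIC) gave differences of opposite sign at the 2 days. It read 5.09, 5.41 and 5.71 with Myb shRNA and 5.91, 5.54 and 6.31 with scrambled shRNA at day 9, a difference of -0.52 ± 0.23 (adjusted p = 0.160). At day 3 it read 5.91, 6.01 and 6.17 with Myb shRNA and 5.49, 5.07 and 5.75 with scrambled shRNA, a difference of 0.59 ± 0.23 (adjusted p = 0.0796). The arrays did not overlap at day 3 and overlapped at day 9, and neither difference passed. With the replicate block both did (0.0456 and 0.0166 as adjusted p). Myh14 was detected on 1 of 3 arrays in the day 9 Myb shRNA group and in the day 3 scrambled group, so these levels lie near background.

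The 3 measured light chains did not pass at either day, though Myl12b (adjusted p = 0.0308) and Myl9 (adjusted p = 0.0354) did at day 3 with the replicate block. Myl6, the essential light chain, read between 13.83 and 13.88 with Myb shRNA and between 13.78 and 13.93 with scrambled shRNA at day 9, and its difference of 0.01 had an interval of -0.20 to 0.23. Its day 3 difference was -0.09 (-0.30 to 0.13). Myl12b, a regulatory light chain, differed by 0.24 (-0.05 to 0.53) at day 9 and by 0.30 (0.02 to 0.59) at day 3. The third light chain, Myl9, was not well above background on any day 9 array.

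The genes around myosin II were counted beside it. Of 11 measured regulators of myosin II, 1 rose and 0 fell at day 9, and 3 rose and 0 fell at day 3. That is 9.09% and 27.3% called, against 16.1% and 22.7% of all genes. Dapk1, a kinase that phosphorylates the light chain, rose by 0.56 ± 0.13 (day 9, adjusted p = 0.00767) and 0.46 ± 0.13 (day 3, adjusted p = 0.0185). Ppp1r12a, the targeting subunit of the myosin phosphatase, rose at day 3 by 1.29 ± 0.22 (adjusted p = 0.001). Of 10 measured genes of actin, tropomyosin and their partners, 2 rose at day 9 and 5 at day 3 (20% and 50%), and 0 fell at either day. Tpm1, a tropomyosin, averaged 12.15 ± 0.08 with Myb shRNA and 11.72 ± 0.14 with scrambled shRNA at day 9 (adjusted p = 0.0143). The day 3 mean was 13.30 ± 0.15 with Myb shRNA and 12.23 ± 0.14 with scrambled shRNA (adjusted p = 1.59e-05).

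Basal cell markers were counted as well. Krt15 and Pdpn add the most to the summed level (log2) of these markers. This sum ran from 14.99 to 15.10 on the Myb shRNA arrays and from 14.34 to 14.57 on the scrambled arrays at day 9. The day 3 range was 15.42 to 15.62 with Myb shRNA and 14.90 to 15.21 with scrambled shRNA. Of the 13 measured basal cell markers, 5 rose at day 9 and 7 at day 3, and 0 fell. The shares called were 38.5% and 53.8%, against 16.1% and 22.7% of all genes. Of the 4 measured fibroblast and smooth muscle markers 1 rose at each day, Sparc, which averaged 9.92 ± 0.25 with Myb shRNA and 8.36 ± 0.15 with scrambled shRNA at day 9 and 11.63 ± 0.18 with Myb shRNA and 9.65 ± 0.42 with scrambled shRNA at day 3. The summed level (log2) of the 4 ran from 10.14 to 10.56 with Myb shRNA and from 9.27 to 9.41 with scrambled shRNA at day 9. At day 3 it ran from 12.00 to 12.13 with Myb shRNA and from 10.61 to 11.22 with scrambled shRNA. Sparc adds the most to this sum except in the day 3 scrambled group, where Acta2, at 9.95 ± 0.35, adds the most. The 3 markers other than Sparc did not pass, with differences of -0.55 (Dcn) and 0.58 (Acta2) at day 9 and 0.00 (Dcn) and -0.22 (Acta2) at day 3, and with Vim at or near background. The part of cell composition in the myosin differences was not tested.

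**Figure D2:**
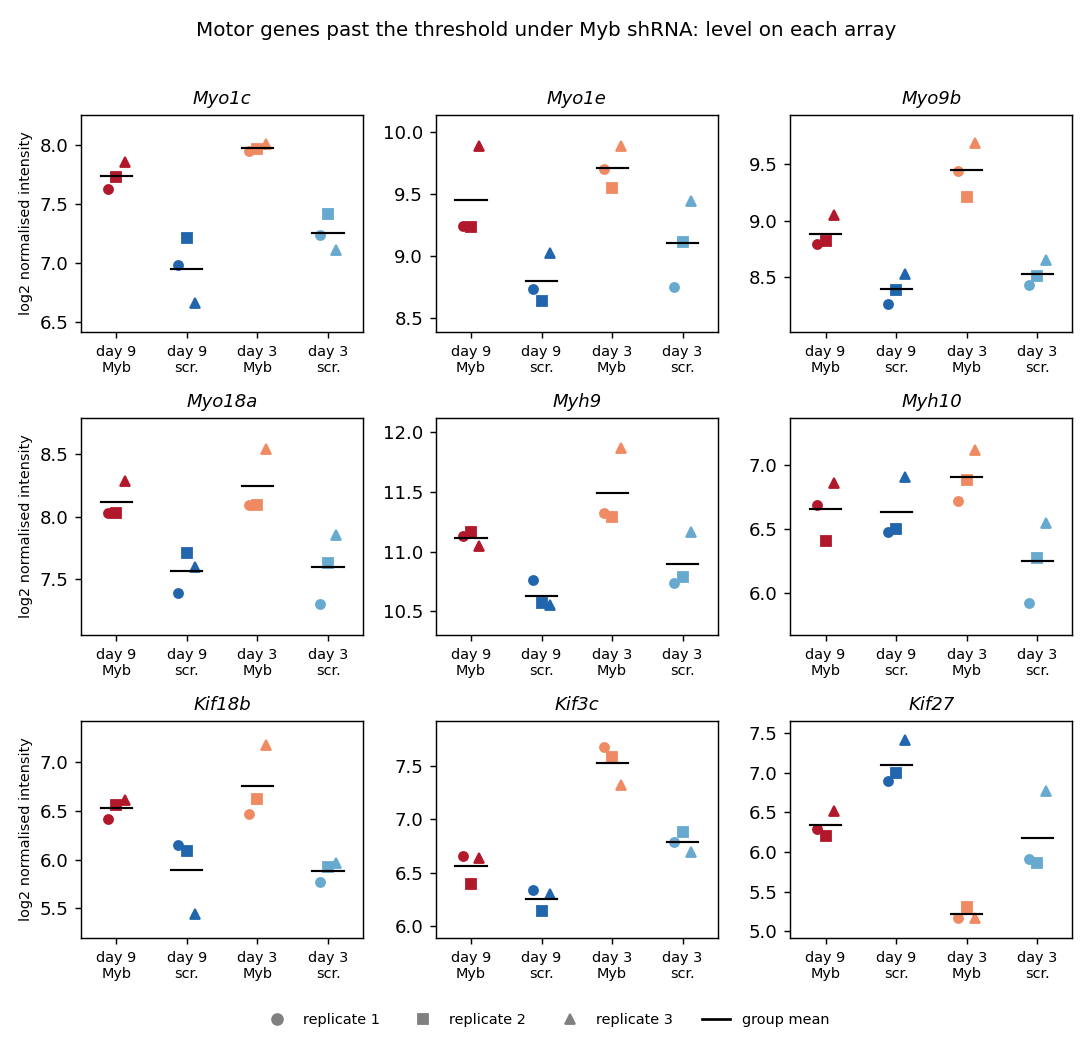
Log2 normalised intensity (vertical axis, a scale of its own in each panel) of the 9 motor genes past the threshold at day 9 or day 3, on each array of the 4 groups (horizontal axis: Myb for Myb shRNA, scr. for scrambled), with the group mean as a line. The Myb shRNA points of Myo1c, Myo1e, Myo9b, Myo18a and Myh9 lie above the scrambled points of the same day, and those of Kif27 below.

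Of the 4 measured ciliary and centriolar kinesins 1 passed, at both days. Kif27, a relative of the fly gene Costal-2 that is needed for motile cilia in the mouse together with the kinase Stk36, read 6.29, 6.20 and 6.52 with Myb shRNA and 6.90, 7.00 and 7.41 with scrambled shRNA at day 9. The arrays did not overlap, and the difference was -0.76 ± 0.23 (adjusted p = 0.0347). At day 3 it read 5.16, 5.31 and 5.16 with Myb shRNA and 5.91, 5.86 and 6.77 with scrambled shRNA. It was not well above background on any of these Myb shRNA arrays and was detected on all 3 scrambled ones, which puts it at least 1.61-fold lower (adjusted p = 0.00785). This bound sets the scrambled mean against the lowest level of any detected probe on each Myb shRNA array, or the probe's own level where higher.

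Kif9, a kinesin of the central pair of motile cilia, read 5.39, 5.84 and 5.68 with Myb shRNA and 6.06, 6.52 and 6.06 with scrambled shRNA at day 9. The arrays did not overlap, and its difference of -0.58 ± 0.19 lay just outside the threshold (adjusted p = 0.0506; 0.0358 with the replicate block). At day 3 Kif9 was detected on 0 of 3 Myb shRNA arrays and 1 of 3 scrambled arrays, and no fold is given. Kif24, a centriolar kinesin that restrains the outgrowth of cilia, differed by -0.59 (-1.34 to 0.16) at day 9 and -0.82 (-1.56 to -0.07) at day 3, where the replicate block gave an adjusted p of 0.0096. It was detected on 8 of the 12 arrays, with 1 of 3 in the day 3 Myb shRNA group. Kif2a, a microtubule depolymerase of spindle poles and centrioles, differed by -0.19 (-0.75 to 0.38) at day 9 and 0.28 (-0.28 to 0.85) at day 3.

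The summed level of the 14 ciliated cell markers (log2) ran from 13.63 to 14.34 on the Myb shRNA arrays and from 15.23 to 15.61 on the scrambled arrays at day 9. At day 3 it ran from 11.23 to 11.34 with Myb shRNA and from 13.81 to 14.54 with scrambled shRNA. Of these markers 12 passed as lower at each day (85.7%), against 9.48% of all genes at day 9 and 11.2% at day 3. The part of ciliated cell number in the Kif27 difference was not tested.

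Mitotic kinesins move chromosomes, slide spindle microtubules apart and complete cytokinesis. Of the 6 measured, 0 passed at day 9 and 1 rose at day 3. Kif18b, which trims the plus ends of astral microtubules, read 6.47, 6.62 and 7.18 with Myb shRNA and 5.77, 5.92 and 5.96 with scrambled shRNA at day 3, a difference of 0.87 ± 0.21 (adjusted p = 0.0101). At day 9 it read 6.42, 6.56 and 6.61 with Myb shRNA and 6.15, 6.09 and 5.44 with scrambled shRNA, a difference of 0.64 ± 0.21 (adjusted p = 0.0605; 0.0386 with the replicate block). The arrays did not overlap at either day. Kif2c, the depolymerase of centromeres, differed by 0.72 (0.09 to 1.35) at day 9 and -0.14 (-0.77 to 0.49) at day 3. The differences of all 6 ran from 0.17 to 0.72 at day 9 and from -0.14 to 0.87 at day 3.

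Other genes of mitosis did not share 1 direction at day 3. Of 15 measured, 1 rose and 0 fell at day 9, and 1 rose and 3 fell at day 3. The shares called were 6.67% and 26.7%, against 16.1% and 22.7% of all genes. Cdk1, the mitotic kinase, averaged 8.05 ± 0.05 with Myb shRNA and 9.36 ± 0.13 with scrambled shRNA at day 3 (adjusted p = 3.92e-05). Aurka, a spindle pole kinase, fell by 1.42 on the log2 scale at day 3 (adjusted p = 0.00142). Mki67, a marker of dividing cells, was at least 2.17-fold higher with Myb shRNA at day 3 (adjusted p = 0.00622), being not well above background on any day 3 scrambled array.

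The sequence around the start of a gene holds no array value, though detection on the arrays decided which genes count as measured. RefSeq promoter windows (build GRCm38.p6, 250 bases before to 50 after the start) were found for 31 of the 34 measured motor genes, with the first listed window used. Each window was searched on both strands for TTTGAA (the letters of the cell cycle homology region, CHR, an element of promoters active in G2 and mitosis), CCAAT (the CCAAT box), AACNG (a core of MYB binding) and GTTGCC (the core of the site of RFX factors, which act on cilium genes). For 25 of these genes the start used lies within 300 bases of the annotated 5′ end of the gene, and shares are given over these and over the 23740 genes that meet the same limit, a limit set after the values were seen. Those of Kif2c, Kif27 and Myo18a lie 3852, 9798 and 13995 bases inside the gene, and they are not shown. TTTGAA was in 5 of 5 windows of mitotic kinesins and in 0 of the other motor genes within this limit, against 18.6% of all genes. It was in 5 of 25 motor genes in all. CCAAT was in the same 5 of 5 mitotic kinesin windows and in 15 of 25 motor genes, against 38.3% of all genes. The MYB core was in 80% of the motor genes and 80.8% of all genes. GTTGCC was in 2 of 3 windows of ciliary and centriolar kinesins, those of Kif9 and Kif24, and in 6 of 25 motor genes, against 12.8% of all genes. Over all 31 windows TTTGAA was in 7, with those of Kif2c and Kif27 added (18.1% of all 27025 genes), and GTTGCC was in 7 (12.7% of all genes). Of the 75 motor genes on the platform, measured or not, 65 had a window. Among these TTTGAA was in 9 of 10 mitotic kinesins and in 12 of 65 motor genes. GTTGCC was in 2 of 5 ciliary and centriolar kinesins and in 13 of 65 motor genes. A match is a run of letters and not a known site.

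The windows of these 5 mitotic kinesins are shown from 110 bases before to 30 after the start, 5′ to 3′ on the strand of the gene, to let the CHR and CCAAT letters be set side by side. Capitals mark matches to the letters of the CHR, the CCAAT box and the RFX site. A match on the opposite strand appears as its reverse complement, which is TTCAAA for the CHR and ATTGG for the box. The MYB core is not marked, and 1 of its matches overlaps the TTTGAA of Kif23.
Kif4: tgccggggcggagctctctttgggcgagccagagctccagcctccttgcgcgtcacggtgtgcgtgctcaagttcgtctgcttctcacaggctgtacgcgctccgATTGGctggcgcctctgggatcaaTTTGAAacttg
Kif11: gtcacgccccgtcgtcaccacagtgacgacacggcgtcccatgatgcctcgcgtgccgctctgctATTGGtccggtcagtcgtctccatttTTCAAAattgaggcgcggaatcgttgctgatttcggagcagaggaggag
Kif18b: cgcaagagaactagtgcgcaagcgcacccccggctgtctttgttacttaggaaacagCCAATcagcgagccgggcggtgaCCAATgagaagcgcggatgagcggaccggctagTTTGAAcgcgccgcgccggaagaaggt
Kif22: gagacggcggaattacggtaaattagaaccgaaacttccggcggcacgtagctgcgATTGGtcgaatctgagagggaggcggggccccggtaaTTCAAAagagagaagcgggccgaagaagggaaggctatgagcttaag
Kif23: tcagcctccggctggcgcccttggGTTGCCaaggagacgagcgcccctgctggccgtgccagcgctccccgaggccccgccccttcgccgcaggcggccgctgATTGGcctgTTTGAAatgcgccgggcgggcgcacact

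The windows lie at chrX:100625955-100626094 (plus strand) for Kif4 and chr19:37376272-37376411 (plus strand) for Kif11. Those of the others lie on the minus strand at chr11:102925095-102925234 for Kif18b, chr7:127042391-127042530 for Kif22 and chr9:61946770-61946909 for Kif23. In all 5 genes a match to the CHR letters lies close to the start. Its first base is 19 and 17 bases before the start in Kif11 and Kif22 and at base 3, 4 and 20 after it in Kif23, Kif18b and Kif4. A CCAAT match lies upstream of these CHR letters in each of the 5 genes. Kif22 has another CHR match 215 bases before the start, outside the stretch shown.

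The windows of Kif9 and Kif24 are shown in the same way, as the ciliary and centriolar kinesins that hold GTTGCC.
Kif9: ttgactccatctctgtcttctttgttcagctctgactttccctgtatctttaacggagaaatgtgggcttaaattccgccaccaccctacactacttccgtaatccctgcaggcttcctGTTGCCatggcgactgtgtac
Kif24: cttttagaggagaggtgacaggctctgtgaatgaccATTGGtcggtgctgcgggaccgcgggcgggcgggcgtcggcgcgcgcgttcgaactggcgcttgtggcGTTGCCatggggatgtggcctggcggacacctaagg

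The Kif9 stretch is chr9:110476848-110476987 (plus strand) and the Kif24 stretch is chr4:41464819-41464958 (minus strand). GTTGCC starts 6 bases before the start used for Kif24. RefSeq lists 2 starts for Kif9, and the same letters begin at base 10 after the first, which is the one shown, and 27 bases before the second.

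Kif3c pairs with the kinesin-2 subunit Kif3a in transport along microtubules. It read 7.67, 7.58 and 7.32 with Myb shRNA and 6.79, 6.88 and 6.69 with scrambled shRNA at day 3. The arrays did not overlap, and the difference of 0.74 ± 0.14 (adjusted p = 0.00228) held without any single array. At day 9 it read 6.66, 6.40 and 6.64 with Myb shRNA and 6.34, 6.14 and 6.30 with scrambled shRNA, again without overlap, and the difference of 0.31 ± 0.14 did not pass (adjusted p = 0.175). The change of the difference between the days was -0.43 ± 0.20 (adjusted p = 0.357).

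The 6 cargo transport kinesins did not pass at either day, and their differences ran from -0.62 to 0.38 at day 9 and from 0.16 to 0.61 at day 3. The lowest at day 9 was that of Kif21a, a kinesin-4 that restrains microtubule growth, with -0.62 ± 0.30 (adjusted p = 0.207; 0.00179 with the replicate block). Within each replicate number the Kif21a difference at day 9 was -0.51, -0.52 and -0.82. Kif13b, a kinesin-3 of vesicles, differed by 0.29 (-0.19 to 0.77) at day 9 and 0.44 (-0.04 to 0.92) at day 3, where the block gave an adjusted p of 0.0199. At day 3 the block also called Kif13a and Kif11, named after their values were seen, Kif13a at 0.61 ± 0.20 (adjusted p = 0.0276) and Kif11 with an adjusted p of 0.0197, and Kif1b at 0.37 ± 0.11 (adjusted p = 0.0142). Kif11, the motor that slides spindle microtubules apart, was at background throughout the day 3 scrambled group, and its Myb shRNA level there was higher by a factor of at least 1.12.

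Of 10 measured partners of kinesins, 2 rose and 1 fell at day 9, and 4 rose and 1 fell at day 3. That is 30% and 50% called, against 16.1% and 22.7% of all genes. Klc1, a kinesin light chain, averaged 9.37 ± 0.02 with Myb shRNA and 8.88 ± 0.13 with scrambled shRNA at day 9 (adjusted p = 0.0301). Its day 3 mean was 9.90 ± 0.16 with Myb shRNA and 9.22 ± 0.27 with scrambled shRNA (adjusted p = 0.00393). Mapk8ip1, an adaptor that loads cargo on kinesin-1, fell by 0.68 on the log2 scale at day 9 (adjusted p = 0.00308) and by 0.52 at day 3 (adjusted p = 0.0114). Of 15 measured genes of cytoplasmic dynein and dynactin, the motor that runs the other way, 1 fell at day 9 and 2 rose at day 3. These are 6.67% and 13.3%, below the shares of all genes. The gene that fell was Dynll1, a dynein light chain that also sits in ciliary dyneins, with -0.56 ± 0.08 (adjusted p = 0.000592).

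Several motor genes had more than 1 measured probe, and their probes could differ in their calls. Of 10 such genes, 3 had probes whose calls differed at day 9 and 4 at day 3, and 0 had probes called in opposite directions at either day. Kif23 is in both counts only through a probe under an older name, described below. The genes described next were singled out after their values were seen. Their p-values come from a fit of all 13793 named probes, which called 14.6% of probes at day 9 and 21% at day 3. The second Kif18b probe did not pass at day 3 (0.52, adjusted p = 0.208), where the first gave 0.87 (adjusted p = 0.0107). The second Myo9b probe did not pass at day 9 (0.41, adjusted p = 0.147), where the first gave 0.49 (adjusted p = 0.0308). At day 3 the second Myo9b probe passed (0.81, adjusted p = 0.00493). Kif23, the kinesin of the cytokinetic midzone, has 2 probes under that name and 1 under its older name Knsl5, which the choice of genes by symbol leaves out. The Knsl5 probe read 10.25, 10.60 and 10.53 with Myb shRNA and 9.03, 8.77 and 8.12 with scrambled shRNA at day 3. That is 1.82 ± 0.20 higher (adjusted p = 3.17e-05), with the arrays far apart. At day 9 it read 9.14, 8.68 and 8.76 with Myb shRNA and 7.78, 7.70 and 7.55 with scrambled shRNA, 1.18 ± 0.20 higher (adjusted p = 0.00142). The brighter probe named Kif23 gave 0.48 ± 0.28 (day 3, adjusted p = 0.244) and 0.40 ± 0.28 (day 9, adjusted p = 0.408). A count that took the Knsl5 probe for Kif23 would add a mitotic kinesin to those that rose at both days.

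Kif1b, a kinesin-3 of mitochondria and synaptic vesicles, has 6 measured probes. The brightest gave a difference of 0.37 ± 0.27 (adjusted p = 0.357) at day 3, with overlapping arrays. The second (probe B) read 8.94, 8.85 and 9.38 with Myb shRNA and 7.96, 7.90 and 8.45 with scrambled shRNA at day 3, 0.95 ± 0.20 higher (adjusted p = 0.00372). The fourth (probe D) was 1.04 ± 0.22 higher (adjusted p = 0.0044). At day 9 probe B was 0.73 ± 0.20 higher (adjusted p = 0.0231) and the brightest differed by 0.00 ± 0.27. The second Myl9 probe was 1.46 ± 0.36 higher at day 3 (adjusted p = 0.0117), where the first gave 0.75 ± 0.30 (adjusted p = 0.0935). On both Myl9 probes the day 3 Myb shRNA replicate 3 array lay more than 1 unit below replicates 1 and 2.

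**Figure D3:**
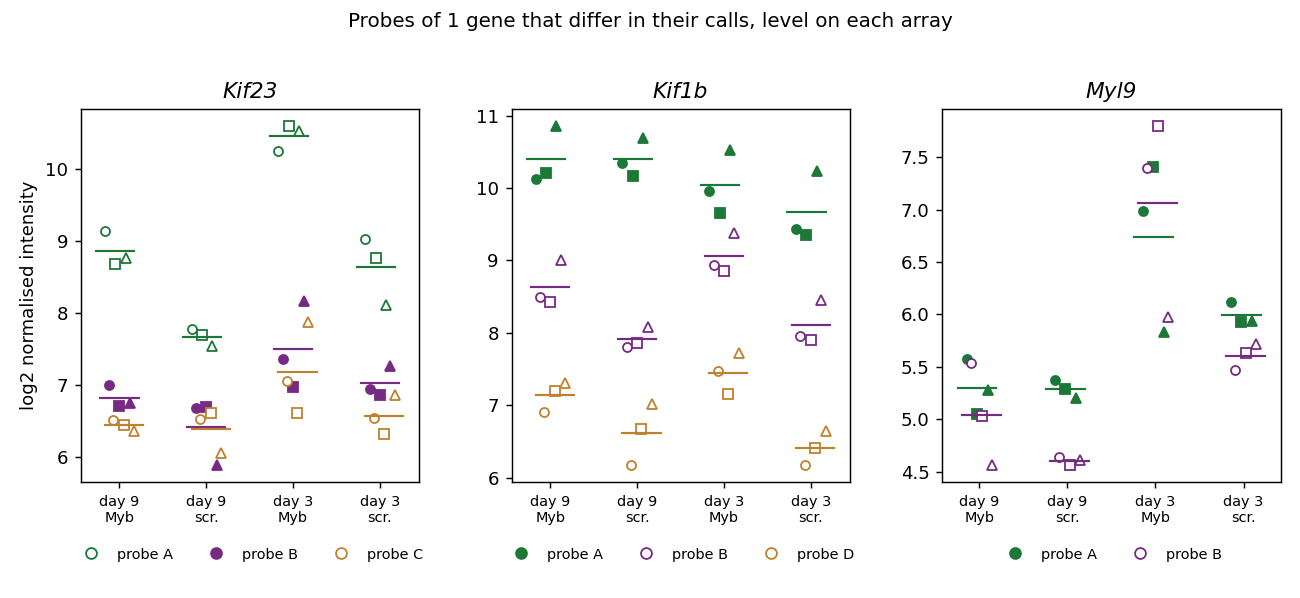
Log2 normalised intensity (vertical axis) of single probes of Kif23, Kif1b and Myl9 on each array of the 4 groups (horizontal axis: Myb for Myb shRNA, scr. for scrambled), lettered from the highest mean, with circles, squares and triangles for replicates 1, 2 and 3, group means as lines and filled marks for the probe that stands for the gene. For Kif1b only probes A, B and D of 6 are drawn. Probe A of Kif23 is the Knsl5 probe, whose day 3 Myb shRNA points lie above 10 while its day 3 scrambled points lie near 9 and below.

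The comparison of day 9 with day 3 asks how the motor genes changed as the epithelium matured in each arm. With Myb shRNA 2 motor genes rose, Kif27 and Myo5c, and 4 fell, Kif3c, Myl9, Myo9b and Myl12b. These 6 of 34 stand beside 16.7% of all genes in that arm (9.26% higher and 7.41% lower), and the arrays of the 2 days did not overlap for 12 motor genes, against 34.7% of all genes. With scrambled shRNA 3 kinesins rose, Kif9, Kif21a and Kif27, and Kif3c fell. These 4 of 34 stand beside 17.1% of all genes (9.55% higher and 7.5% lower), and the arrays did not overlap for 11 motor genes, against 32.3% of all genes. Of the 17 myosin chains 1 rose and 3 fell with Myb shRNA, and 0 passed with scrambled shRNA, where 7 passed with the replicate block (5 higher and 2 lower). With that block 13 motor genes passed with Myb shRNA and 12 with scrambled shRNA, among 25.2% and 30% of all genes. The count of 6 with Myb shRNA was 3 without day 9 Myb shRNA replicate 2. With scrambled shRNA, leaving out day 9 scrambled replicate 3 took the count of 4 to 1, leaving out day 3 scrambled replicate 1 or 2 took it to 2, and leaving out day 3 scrambled replicate 3 took it to 10. The share of all genes called moved too over the fits that each leave out 1 array. It ran from 11% to 21.1% with Myb shRNA and from 8.63% to 29.3% with scrambled shRNA.

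Kif27 was higher at day 9 in both arms. With Myb shRNA it was at least 1.8-fold higher at day 9 (adjusted p = 0.00352), the day 3 arrays being at background. With scrambled shRNA it was 0.92 ± 0.23 higher (adjusted p = 0.0134), and day 9 and day 3 arrays did not overlap. Kif9 read 6.06, 6.52 and 6.06 at day 9 and 5.25, 5.13 and 5.60 at day 3 with scrambled shRNA, a rise of 0.89 ± 0.19 (adjusted p = 0.00562), with detection on all 3 arrays at day 9 and on 1 at day 3. With Myb shRNA Kif9 was at least 1.1-fold higher at day 9, which did not pass (adjusted p = 0.0555; 0.0402 with the replicate block). The summed ciliated cell marker levels given above were also higher at day 9 in both arms, without overlap.

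Kif21a read 9.07, 9.19 and 10.12 at day 9 and 7.72, 8.10 and 8.63 at day 3 with scrambled shRNA. The arrays did not overlap, and the rise was 1.31 ± 0.30 (adjusted p = 0.00962). With Myb shRNA it read 8.56, 8.67 and 9.30 at day 9 and 8.31, 8.11 and 8.79 at day 3, with overlap and a difference of 0.44 ± 0.30 (adjusted p = 0.384; 0.0163 with the replicate block). Whether the rise differed between the arms is the interaction, which was -0.87 ± 0.43 and did not pass (adjusted p = 0.384). Kif3c fell in both arms, by 0.95 on the log2 scale with Myb shRNA (adjusted p = 0.000396) and by 0.53 with scrambled shRNA (adjusted p = 0.0221), with every day 9 array below every day 3 array of its arm.

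Among the myosins, Myl9, a regulatory light chain of smooth muscle and nonmuscle myosin II, read 5.57, 5.05 and 5.28 at day 9 and 6.99, 7.41 and 5.83 at day 3 with Myb shRNA. It was not well above background on any day 9 array, and it was at least 2.28-fold lower there (adjusted p = 0.00451). With scrambled shRNA it was at least 1.41-fold lower at day 9, which did not pass (adjusted p = 0.124). Myl12b read 12.01, 11.86 and 11.50 at day 9 and 12.30, 12.31 and 12.15 at day 3 with Myb shRNA, a fall of 0.46 on the log2 scale (adjusted p = 0.0299) without overlap. With scrambled shRNA its difference was -0.40 ± 0.13 (adjusted p = 0.0569; 0.00887 with the replicate block). Myo9b was lower at day 9 with Myb shRNA, by -0.56 ± 0.14 (adjusted p = 0.0135), and differed by -0.14 ± 0.14 with scrambled shRNA (adjusted p = 0.536). Myo5c, a myosin of secretory granules in epithelia, read 9.95, 10.03 and 10.07 at day 9 and 9.28, 9.21 and 9.70 at day 3 with Myb shRNA, a rise of 0.62 ± 0.17 (adjusted p = 0.0198). Its scrambled arrays overlapped, with a difference of 0.35 ± 0.17 (adjusted p = 0.164; 0.0361 with the replicate block).

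Of 10 measured genes of actin and tropomyosin, 8 were lower at day 9 with Myb shRNA and 6 with scrambled shRNA, and 0 were higher. That is 80% and 60% called, against 16.7% and 17.1% of all genes. Tpm1 was lower by -1.14 ± 0.11 with Myb shRNA (adjusted p = 8.78e-06) and by -0.52 ± 0.11 with scrambled shRNA (adjusted p = 0.00585). Acta2, smooth muscle actin, which is also in the fibroblast and smooth muscle list, averaged 7.22 ± 0.92 at day 9 and 9.73 ± 0.69 at day 3 with Myb shRNA (adjusted p = 0.000654). With scrambled shRNA it averaged 6.64 ± 0.24 at day 9 and 9.95 ± 0.35 at day 3 (adjusted p = 0.000115). The summed fibroblast and smooth muscle marker levels given above were lower at day 9 in both arms, without overlap. Only 4 of 14 such markers were measured, and 3 of the 4 passed as lower with Myb shRNA and 2 with scrambled shRNA. With scrambled shRNA Dcn averaged 7.49 ± 0.07 at day 9 and 7.63 ± 0.19 at day 3, and Vim was at or near background. The part of fibroblasts or smooth muscle cells in the Myl9 and Myl12b differences was not tested.

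**Figure D4:**
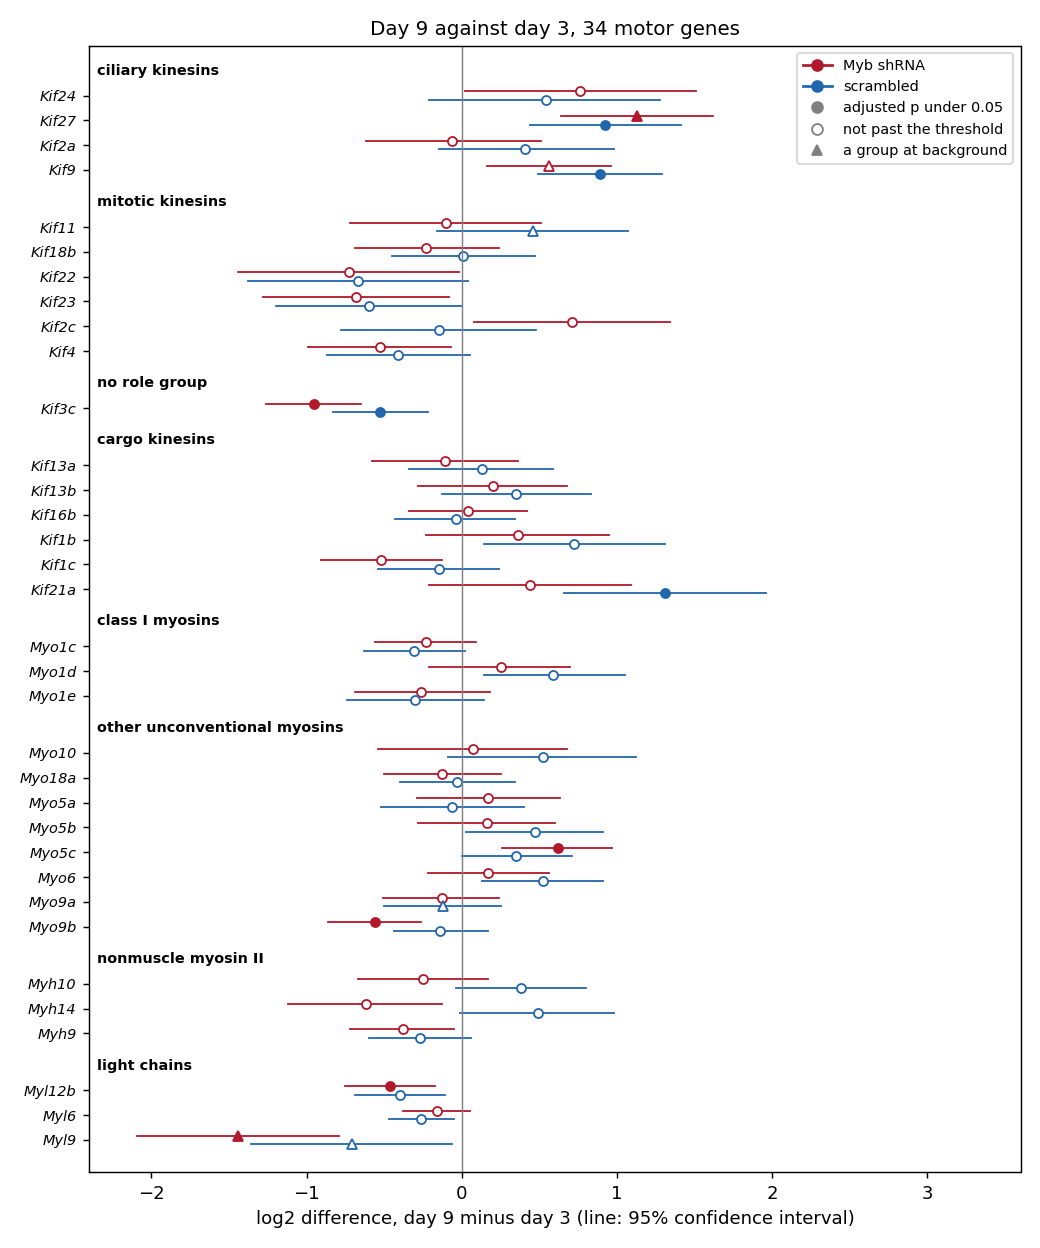
Log2 differences between day 9 and day 3 (horizontal axis) for each of the 34 measured motor genes (vertical axis, by role group) with Myb shRNA (red) and scrambled shRNA (blue), with 95% confidence intervals as lines and filled points for adjusted p-values under 0.05. Kif27 has filled points right of 0 in both arms and Kif3c left of 0. Triangles mark a difference for which 1 or both groups were not above background, drawn at the fitted value, which is no measured size.

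The interaction of day and shRNA tests whether the effect of the shRNA differed between the days. No motor gene passed (0 of 34 by limma, against 1.65% of all genes), and 2 had an unadjusted p-value under 0.05, as had 14.2% of all genes. These were Myh14, with -1.11 (95% confidence interval -1.81 to -0.41, adjusted p = 0.122), and Myh10, with -0.63 (-1.23 to -0.04, adjusted p = 0.316). With the replicate block 2 motor genes passed, Kif21a (adjusted p = 0.00768) and Myh14 (adjusted p = 0.0144), against 7.62% of all genes. The interaction draws on all 4 groups, and same-numbered deviations of the day 3 Myb shRNA and day 9 scrambled arrays correlated at 0.0196, 0.0612 and 0.343, so the numbers were not read as pairs for it. The intervals of the genes called at both days include 0, for example 0.07 (-0.38 to 0.53) for Myo1c, which leaves room for a difference between the days of up to 0.53, so equal effects are not shown. The value of Kif27 is open on one side, since it was at background in the day 3 Myb shRNA group. Without day 3 Myb shRNA replicate 3, 1 gene passed, Myl9 (adjusted p = 0.0415), whose day 9 levels were not well above background in either arm, so that no size is given.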

How the data were processed

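Total RNA was labelled with biotin and hybridised to Illumina bead arrays, per the labels' protocols. One deposited table, not normalised, holds, per the file headers, a signal intensity and a detection p-value for 45281 probes on 12 arrays; 28.8% to 34.4% of signals per array lie below 0, so a background had been subtracted. A second deposited table on a log2 scale was used only as an alternative, and how the authors normalised it is not given in the sources used here. The submitters' processing notes list BeadStudio 3.0 and limma.

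From the intensities, limma 3.58.1 (R 4.3.3) gave neqc values (offset 16), a filter (detection p-value under 0.01, 3 or more arrays), the probe with the highest mean for each of 9381 genes, lmFit of 4 group means on all 12 arrays (8 residual degrees of freedom) and eBayes with a trend. Genes chosen by symbol kept a probe that carries that symbol. Two-sided p-values were adjusted by Benjamini-Hochberg (threshold 0.05). Probes were named from the platform annotation, updated through RefSeq (GRCm38.p6, also the source of promoter windows; no gene coordinates are given since the build of the array's design is not given in the sources used here). On simulated data changed by 0.5, 1 and 2 on the log2 scale at day 9, 25.4%, 71.6% and 100% of changed genes were recovered. There few genes were changed and the noise was independent between arrays. In the data 16.1% of genes were called at day 9 and same-numbered arrays shared deviations, so these rates are no estimate for the comparisons made.

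The motor genes, role groups and lists were chosen with earlier results of these data known. Groups and replicate numbers come from the labels. Every motor gene past the threshold in a shRNA comparison is named, up to 12 at each day and 6 more between the days with values on each array, and of the others the 2 with the highest mean in a role group. Deviations of same-numbered arrays from their group means correlated at 0.297 to 0.622 (shRNA, day 9), 0.151 to 0.518 (shRNA, day 3), 0.108 to 0.476 (days, Myb shRNA) and 0.267 to 0.484 (days, scrambled), all over 0.1. Within these comparisons the numbers were thus read as pairs from the data. The main fit leaves this pairing out, and values from a fit with the number as a block are given beside it. Between the day 9 scrambled and day 3 Myb shRNA arrays, which the interaction also joins, the correlations reached only 0.0196 and 0.0612 for numbers 1 and 2. That is below the limit, and for the interaction no pairing was assumed. The block, however, is shared by all 4 groups in 1 fit of all 12 arrays. Its p-values for the shRNA and day comparisons thus also assume a link between those arrays. Kif6, Myl12a and Myo19, which the platform lists under older names, were not counted.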

Additional observations from a re-analysis of the deposited data

How the results depend on the processing

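Among the recomputed differences of called motor genes, 428 kept their direction and their side of the threshold, 91 kept the direction without passing, and 0 turned. The calls of Myo1c at day 9, of Myo1c, Myo9b, Kif3c, Kif18b and Kif27 at day 3, of Kif3c, Kif27 and Myl9 between the days with Myb shRNA, and of Kif9 between the days with scrambled shRNA passed under every alternative that gave them a value. Counts follow in the order day 9 and day 3 (Myb shRNA against scrambled), Myb shRNA and scrambled (day 9 against day 3), and interaction. With the replicate number as a block they were 10, 20, 13, 12 and 2, the 2 being Kif21a and Myh14, with 24.8%, 36.2%, 25.2%, 30% and 7.62% of all genes called. With array weights they were 11, 27, 21, 18 and 11, but the estimation of these weights stopped before it converged, at weights of 0.153 to 19.8, and 29.2%, 70%, 50.9%, 49.8% and 36.2% of all genes were called. Leaving out the 4 arrays numbered 3, an alternative chosen after seeing the data, gave 10, 19, 12, 14 and 6, with 25.7%, 38.4%, 26.4%, 37.6% and 15.1% of all genes called. Without a detection filter the day 9 count was 3 (6.25% of all genes), with detection on all 12 arrays the scrambled count was 2 (15.1%), and with only the 2 groups compared the day 3 count was 5 (16.5%). Without single arrays the counts ran from 1 to 7, 5 to 15, 3 to 8, 1 to 10 and 0 to 1, with 10.1% to 20.2%, 15.4% to 32.2%, 11% to 21.1%, 8.63% to 29.3% and 0.554% to 3.5% of all genes called. Where a count moved, the cause was not tested, except that fewer arrays or genes enter the fits that leave them out. Signal over background limits Myo9a, Kif9, Kif11, Myl9, Myo5a, Kif24, Myh14 and Kif27, detected on 3 to 9 arrays, and less so Kif13a, Kif1c and Myo1d, detected on 11.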
